A study of Homo sapiens with 8 samples.

Results

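The 10 genes described here encode the enzymes that make serine and glycine and pass their carbon to folate: PHGDH, PSAT1, PSPH, SHMT1, SHMT2, MTHFD2, MTHFD1L, MTHFD1, ALDH1L2 and GLDC. They are 10 of the 20263 genes in the table and all 10 were among the 11725 genes tested. The genes were named by their place in the pathway, but the pathway was selected on the measured difference between EB and DMSO in these same libraries, so that difference is given below as a description of the 10 genes and not as a test.

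The RNA came from PANC-1, an established human cell line derived from a carcinoma of the pancreatic duct. The labels name no engineered allele in either group. The 4 EB libraries came from cells given 10 µM eupalinolide B (EB), a sesquiterpene lactone of the plant Eupatorium lindleyanum, for 24 h. The 4 DMSO libraries came from cells given the solvent dimethyl sulfoxide for the same 24 h. Values are TPM, a gene's share of a library's transcripts after correction for length, so that levels of different genes can be set side by side. Reads per gene are not part of the table, so the depth of each library is not known and counting error has no interval here. The table's columns are headed C and H. C was read as control, and H, a letter that the sources used here do not explain, was read as EB because there was no other group. In bulk RNA, fewer cells of a kind and less of a transcript per cell cannot be told apart.

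Cells make serine from the glycolytic intermediate 3-phosphoglycerate in a chain of reactions run by PHGDH, PSAT1 and PSPH. Serine hydroxymethyltransferases then split serine into glycine and a one-carbon unit carried on tetrahydrofolate, SHMT1 in the cytosol and SHMT2 in mitochondria, and the folate enzymes turn that unit into the forms used to build purines and thymidylate or release it as formate. Many genes of this pathway are known targets of ATF4, the transcription factor of the amino acid and integrated stress responses. In pancreatic cancer cells, PHGDH is known for allowing growth where serine is scarce.

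In the libraries as a whole, KRT8, KRT18 and KRT19, keratins of simple epithelia, were between 135 and 1897 TPM, with means of 755, 399 and 163 TPM with DMSO and 1710, 1119 and 569 TPM with EB. The ductal and epithelial markers KRT7, EPCAM and CDH1 were below 0.458 TPM in every library, and all 6 markers summed to 992 to 1454 TPM with DMSO and 3209 to 3593 TPM with EB. The part of this difference in the members' values was not tested. All 4 acinar, all 3 endocrine and all 3 leukocyte markers were listed at 0 in every library. Of the 4 fibroblast markers DCN and LUM were at 0, COL1A1 was at 0.806 to 2.17 TPM and COL1A2 at 37.7 to 90.0 TPM over all libraries. The summed level of the 4 was 64.0 to 91.8 TPM with DMSO and 38.6 to 50.4 TPM with EB. The 3 endothelial markers summed to at most 0.305 TPM. DMSO replicate 4 stood apart from the other DMSO libraries: the 13 mitochondrially encoded genes took 39.0% of its TPM, against 17.0% to 21.1% in DMSO replicates 1 to 3 and 11.6% to 20.3% in the EB libraries. TPM have a fixed sum, so this library left less of it to nuclear genes. Several values below are also given with TPM rescaled over nuclear genes or without that library.

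Promoter sequence is shown for the members in which the letters of a known response element were found, and for 4 members with a stretch outside the gene's annotated exons just upstream of a start site. PHGDH had 1 window, and no stretch of it is shown here. The windows ran from 250 bases before to 50 bases after a start site in the RefSeq promoter table for GRCh38, and 7 of the 10 genes had at least 1 window, 10 windows in all. PSPH, SHMT2 and ALDH1L2 had none. Both strands were searched for TGATGNAA, the C/EBP-ATF response element bound by ATF4, for CACGTG, the E box bound by MYC and related factors, and for TGACNNNGC, the core of the antioxidant response element bound by NRF2. None of the matches reported here overlaps another. Of all 35116 windows, 3.62% held the first, 7.26% the second and 13.3% the third. In the sequences below, capitals mark the letters that matched and each name is followed by the part of the promoter shown, on the gene's own strand.
MTHFD1L, chr6:150866347-150866374, strand +: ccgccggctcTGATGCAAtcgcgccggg
MTHFD1L, chr6:150866322-150866347, strand +: cgcccggctcCACGTGcgcagccggc
MTHFD1, chr14:64388328-64388353, strand +: agtccctaagCACGTGggttgggttg
MTHFD2, chr2:74198611-74198639, strand +: ttccctcccgGCGCAGTCAccggcgcggt

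MTHFD1L was the only member with the C/EBP-ATF letters among the 7 with a window. Its 4 windows belong to nearby start sites, and 3 of them held the same TGATGCAA and the same CACGTG, whose first bases lie 25 bases apart. The start of MTHFD1 had a CACGTG 15 bases upstream, and MTHFD2 had the antioxidant core on the minus strand, from 6 bases downstream of its start. In the GENCODE annotation of hg38 the MTHFD1L TGATGCAA and the MTHFD1 and MTHFD2 matches lie in annotated exons of the same genes. Of the 26 bases shown around the MTHFD1L CACGTG, 15 lie in such exons. Windows of PHGDH, PSAT1, SHMT1 and GLDC held none of the 3 motifs. Of the 11 genes of the amino acid stress response described further on, which had 21 windows, 4 had a C/EBP-ATF match, namely ATF3, CEBPG, CHAC1 and ASNS. These counts are per gene and the shares of all windows are per window, so the counts are not compared with those shares. These matches describe the letters of the windows and do not show that a factor binds there.

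The bases just upstream of 4 members without C/EBP-ATF letters are given next for comparison, PSAT1 and GLDC because every EB library was above every DMSO library, and SHMT1 and MTHFD2 because their groups overlapped. None of the bases shown lies in an annotated exon of the gene, and all 4 stretches were rich in G and C, at 70.0% to 73.7%.
PSAT1, chr9:78297025-78297124, strand +: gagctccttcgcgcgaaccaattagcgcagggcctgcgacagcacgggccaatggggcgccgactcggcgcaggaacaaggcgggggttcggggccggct
GLDC, chr9:6645730-6645829, strand -: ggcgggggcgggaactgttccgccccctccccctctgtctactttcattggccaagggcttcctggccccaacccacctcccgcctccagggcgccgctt
SHMT1, chr17:18363564-18363650, strand -: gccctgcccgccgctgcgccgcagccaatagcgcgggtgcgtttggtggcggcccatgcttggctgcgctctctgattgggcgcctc
MTHFD2, chr2:74198515-74198609, strand +: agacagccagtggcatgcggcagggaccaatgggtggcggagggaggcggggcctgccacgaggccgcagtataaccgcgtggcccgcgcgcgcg

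With EB, the RNAs of 6 members were higher than with DMSO in every library of the group: PHGDH, PSAT1, SHMT2, MTHFD1L, ALDH1L2 and GLDC. The other 4 overlapped between the groups, PSPH and MTHFD2 with means slightly higher with EB and SHMT1 and MTHFD1 with lower means. A gene is called here when limma's adjusted p (Benjamini-Hochberg over all genes tested) on log2(TPM + 1) was under 0.05. The same 6 members were called higher, 0 were called lower and 4 were not called. Of all genes tested, 15.2% were called higher and 25.1% lower, 16.6% had every EB library above every DMSO library and 20.3% had every EB library below. The median log2 fold change was 0.72 over the members and -0.11 over all genes tested. Since the pathway was picked from this contrast, nothing is read from these counts.

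**Figure D1:**
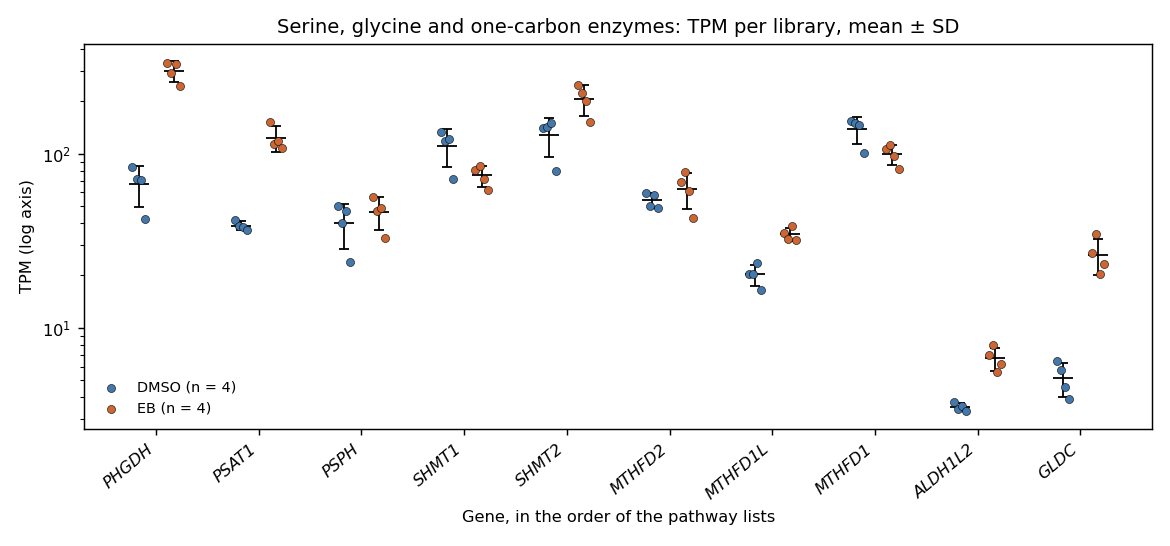
TPM on a log axis for each of the 10 enzymes in the 4 DMSO (blue) and 4 EB (orange) libraries, with bars for mean ± SD. PHGDH and GLDC are separated most widely, at 67.3 against 299 TPM and 5.16 against 26.3 TPM, while the points of PSPH, SHMT1, MTHFD2 and MTHFD1 overlap.

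PHGDH (ENSG00000092621, chr1:119648411-119744218, hg38, strand +) encodes phosphoglycerate dehydrogenase, which draws 3-phosphoglycerate out of glycolysis in the first step of serine synthesis. Its TPM in DMSO replicates 1 to 4 were 83.7, 72.0, 71.1 and 42.2, and in EB replicates 1 to 4 they were 332, 292, 327 and 247. The lowest EB library was above the highest DMSO library, and DMSO replicate 4 was lowest. The mean was 67.3 ± 17.7 TPM (SD, n = 4) with DMSO and 299 ± 39.7 TPM (SD, n = 4) with EB, a 4.45-fold ratio of means and a log2 fold change of 2.17 (SE 0.21) on log2(TPM + 1). Without DMSO replicate 4 the log2 fold change was 1.97. DMSO replicate 4 stood at 0.558 of the mean of the other DMSO libraries, and at 0.735 after rescaling over nuclear genes.

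PSAT1 (ENSG00000135069, chr9:78297125-78330093, strand +) encodes phosphoserine aminotransferase, which takes the amino group from glutamate in the second step. Its TPM were 41.9, 38.3, 38.1 and 36.3 with DMSO and 153, 114, 118 and 108 with EB. As deposited, the DMSO libraries lay close together, DMSO replicate 4 included, and every EB library was higher. With TPM rescaled over nuclear genes, DMSO replicate 4 stood at 1.21 of the mean of the other DMSO libraries, and every EB library was still higher. Its mean went from 38.7 ± 2.33 TPM (SD, n = 4) with DMSO to 123 ± 20.3 TPM (SD, n = 4) with EB, with a log2 fold change of 1.64 (SE 0.14).

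PSPH (ENSG00000146733, chr7:56011051-56051604, strand -) encodes phosphoserine phosphatase, which releases free serine in the last step. It was at 50.1, 39.8, 46.8 and 23.8 TPM with DMSO and at 56.7, 46.9, 48.9 and 32.9 TPM with EB. The groups overlapped, and replicate 4 was lowest in both. The means were 40.1 ± 11.7 TPM (SD, n = 4) and 46.3 ± 9.93 TPM (SD, n = 4), and the log2 fold change of 0.23 (SE 0.25) was smaller than its own error. Without DMSO replicate 4 it was 0.003.

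The difference between the last enzyme and the others also appeared within each library, where a common scaling of all genes cancels. The PHGDH to PSPH ratio was 1.52 to 1.81 with DMSO and 5.86 to 7.50 with EB. The PSAT1 to PSPH ratio was 0.814 to 1.53 with DMSO and 2.41 to 3.28 with EB, and neither ratio overlapped between the groups. PHGDH moved from 1.16 to 1.999 times the level of PSAT1 to 2.17 to 2.78 times. The 3 serine synthesis RNAs summed to 146 ± 31.1 TPM (SD, n = 4) with DMSO and 469 ± 65.7 TPM (SD, n = 4) with EB.

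**Figure D2:**
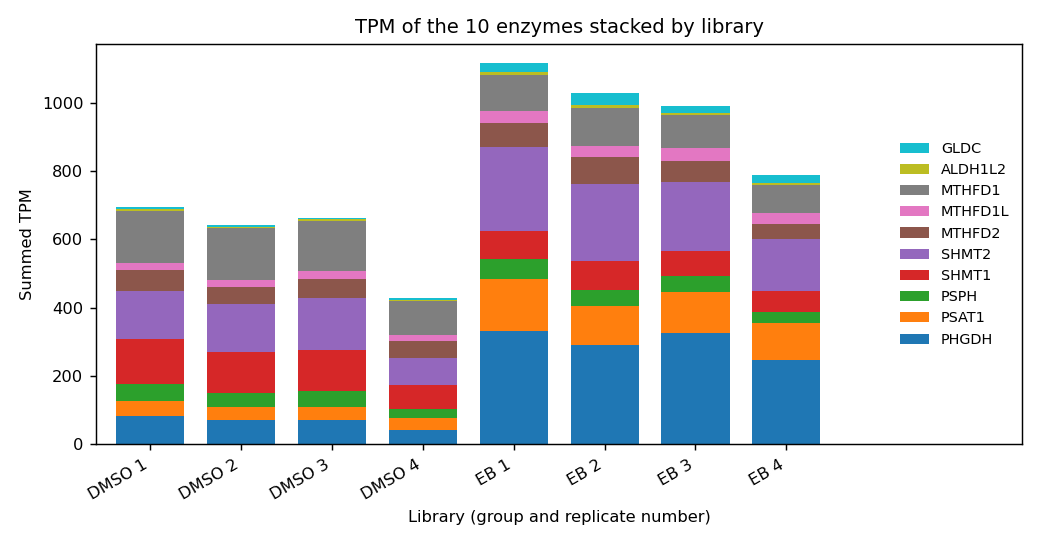
Summed TPM of the 10 enzymes in each of the 8 libraries, stacked by gene. The stacks reach 428 to 695 TPM with DMSO and 788 to 1117 TPM with EB, and PHGDH (lowest segment) takes 9.85% to 12.1% of the stack with DMSO and 28.4% to 33.1% with EB.

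Of the serine hydroxymethyltransferases, which make glycine from serine, SHMT2 was called higher and SHMT1 was not called. SHMT2 (ENSG00000182199, chr12:57229573-57234935, strand +), the mitochondrial enzyme, was at 141, 142, 151 and 79.9 TPM with DMSO and at 248, 224, 202 and 152 TPM with EB. Every EB library was above every DMSO library, although EB replicate 4 at 152 TPM exceeded DMSO replicate 3 at 151 TPM only narrowly. The mean was 128 ± 32.7 TPM (SD, n = 4) with DMSO and 207 ± 40.8 TPM (SD, n = 4) with EB, with a log2 fold change of 0.70 (SE 0.23) that fell to 0.49 without DMSO replicate 4. SHMT2 was called higher under 11 of the 17 alternative ways of handling the values.

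SHMT1 (ENSG00000176974, chr17:18327860-18363563, strand -), the cytosolic enzyme, was at 134, 119, 121 and 71.7 TPM with DMSO and at 81.2, 85.3, 72.0 and 61.8 TPM with EB. The overlap came from DMSO replicate 4, which lay below 3 of the EB libraries, while the other DMSO libraries were above all of them. The means were 111 ± 27.3 TPM (SD, n = 4) with DMSO and 75.1 ± 10.5 TPM (SD, n = 4) with EB, with a log2 fold change of -0.54 (SE 0.20). With TPM rescaled over nuclear genes, every EB library was below every DMSO library, the log2 fold change was -0.72 and SHMT1 was called lower. The SHMT2 to SHMT1 ratio within a library was 1.05, 1.19, 1.25 and 1.11 with DMSO and 3.06, 2.62, 2.80 and 2.47 with EB. The ratio in DMSO replicate 4 lay within the range of the other DMSO libraries.

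The trifunctional cytosolic enzyme MTHFD1 (ENSG00000100714, chr14:64388031-64463457, strand +) interconverts the folate-bound one-carbon forms and joins formate to tetrahydrofolate. Its TPM were 154, 150, 147 and 101 with DMSO and 107, 113, 97.0 and 82.0 with EB. As for SHMT1, DMSO replicate 4 alone reached into the EB range. The means were 138 ± 24.6 TPM (SD, n = 4) and 99.6 ± 13.5 TPM (SD, n = 4), with a log2 fold change of -0.46 (SE 0.17). Rescaled over nuclear genes, it was -0.64, with every EB library below every DMSO library and MTHFD1 called lower. SHMT1 and MTHFD1, the cytosolic enzymes among the members, were each called lower under 6 of the 17 alternatives and were lower with EB in all 17.

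MTHFD1L (ENSG00000120254, chr6:150865679-151101887, strand +) encodes the mitochondrial enzyme that releases formate from the folate carrier. It was at 20.4, 20.5, 23.6 and 16.6 TPM with DMSO and at 35.2, 32.5, 38.2 and 32.0 TPM with EB. The groups were well apart and the spread within each was small. The means were 20.3 ± 2.86 TPM (SD, n = 4) and 34.5 ± 2.89 TPM (SD, n = 4), and the log2 fold change was 0.74 (SE 0.14). The MTHFD1L to MTHFD1 ratio was 0.132 to 0.164 with DMSO and 0.288 to 0.394 with EB.

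MTHFD2 (ENSG00000065911, chr2:74186172-74217565, strand +) encodes the mitochondrial dehydrogenase and cyclohydrolase that acts between SHMT2 and MTHFD1L. Its TPM were 59.5, 50.004, 57.7 and 49.1 with DMSO and 69.1, 78.5, 61.3 and 43.1 with EB. EB replicate 4 was the lowest of all 8 libraries, and the other EB libraries were above every DMSO library. The mean was 54.1 ± 5.27 TPM (SD, n = 4) with DMSO and 63.0 ± 15.0 TPM (SD, n = 4) with EB, so the log2 fold change of 0.19 (SE 0.18) was about the size of its error. It was 0.006 after rescaling over nuclear genes and 0.37 with the dependence on transcript length and GC content removed, and MTHFD2 was called under 0 of the 17 alternatives. The ratio of MTHFD2 to MTHFD1 in the same library was 0.334 to 0.485 with DMSO and 0.525 to 0.695 with EB. MTHFD1, its denominator, had a lower mean with EB (log2 fold change -0.46), so a higher ratio is not a rise of MTHFD2 by itself.

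ALDH1L2 (ENSG00000136010, chr12:105019784-105107643, strand -) encodes the mitochondrial formyltetrahydrofolate dehydrogenase, which oxidizes the one-carbon unit to carbon dioxide and yields NADPH. Its TPM were 3.74, 3.42, 3.55 and 3.31 with DMSO and 6.95, 7.98, 5.60 and 6.24 with EB. Relative to the mean, the DMSO values as deposited were the tightest of any member, and every EB value was higher. With TPM rescaled over nuclear genes, DMSO replicate 4 stood at 1.22 of the mean of the other DMSO libraries. The means were 3.51 ± 0.182 TPM (SD, n = 4) and 6.69 ± 1.02 TPM (SD, n = 4). The log2 fold change of 0.76 (SE 0.13) understates the 1.91-fold ratio of means, because the added 1 TPM weighs more at low levels.

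Added up, the mitochondrial folate enzymes SHMT2, MTHFD2, MTHFD1L and ALDH1L2 stood at 206 ± 39.1 TPM (SD, n = 4) with DMSO and 311 ± 55.9 TPM (SD, n = 4) with EB. The cytosolic enzymes SHMT1 and MTHFD1 summed to 249 ± 51.8 TPM (SD, n = 4) and 175 ± 23.9 TPM (SD, n = 4). Each sum overlapped between the groups. The mitochondrial share of the total did not overlap, at 43.8%, 44.6%, 46.8% and 46.3% with DMSO and 65.7%, 63.4%, 64.5% and 61.9% with EB. The SD of this share was 1.42 percentage points with DMSO and 1.61 with EB.

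**Figure D3:**
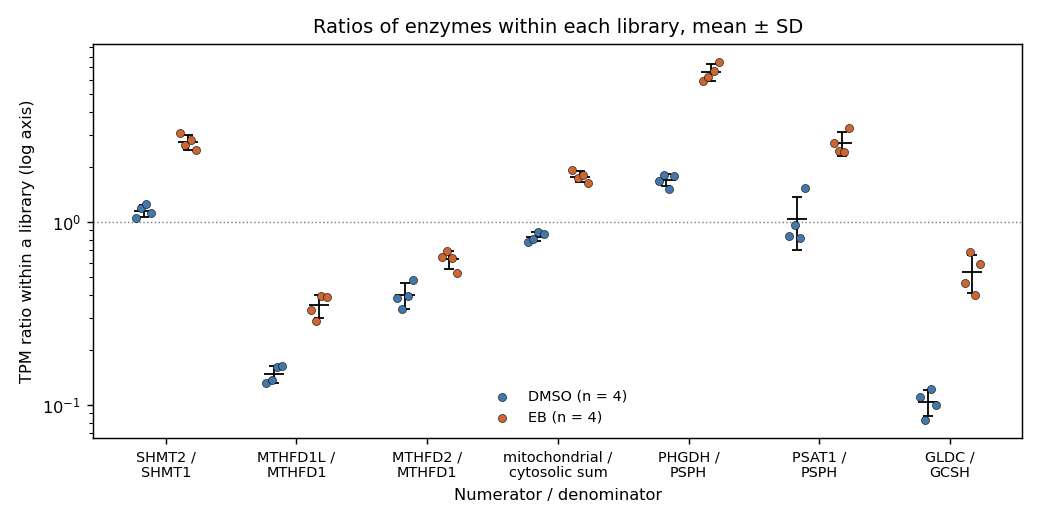
Ratio of TPM between enzymes of the same library on a log axis, for 4 DMSO (blue) and 4 EB (orange) libraries with mean ± SD and a dotted line at a ratio of 1. All 7 ratios are higher in every EB library, and the mitochondrial to cytosolic sum moves from 0.780 to 0.881 with DMSO to 1.62 to 1.91 with EB.

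GLDC (ENSG00000178445, chr9:6532467-6645729, strand -) encodes glycine decarboxylase, the subunit of the mitochondrial glycine cleavage system that takes carbon dioxide from glycine. It was at 6.46, 5.71, 4.57 and 3.90 TPM with DMSO and at 26.9, 34.8, 20.3 and 23.2 TPM with EB. The lowest EB library was above the highest DMSO library by more than the whole DMSO range. The mean was 5.16 ± 1.14 TPM (SD, n = 4) with DMSO and 26.3 ± 6.27 TPM (SD, n = 4) with EB. The ratio of means, 5.10, was the highest of the 10 members, with a log2 fold change of 2.14 (SE 0.19).

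The order of the members by level also differed between the groups. With DMSO the highest means were those of MTHFD1, SHMT2 and SHMT1, followed by PHGDH, MTHFD2, PSPH, PSAT1, MTHFD1L, GLDC and ALDH1L2. In that order only PSAT1 and MTHFD1L, MTHFD1L and GLDC, and GLDC and ALDH1L2 were neighbours whose libraries did not overlap. With EB the order was PHGDH, SHMT2, PSAT1, MTHFD1, SHMT1, MTHFD2, PSPH, MTHFD1L, GLDC and ALDH1L2, and GLDC and ALDH1L2 were the only neighbours whose libraries did not overlap. Compared within each EB library, all neighbours kept the EB order except MTHFD1L and GLDC in EB replicate 2. Within DMSO libraries the DMSO order failed for MTHFD1 and SHMT2 in replicate 3. In DMSO replicate 4 it failed for PHGDH and MTHFD2 and for PSPH and PSAT1. PHGDH, with 82.4% of the tested genes below its DMSO mean, was thus the fourth of the members with DMSO and the first with EB.

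**Figure D4:**
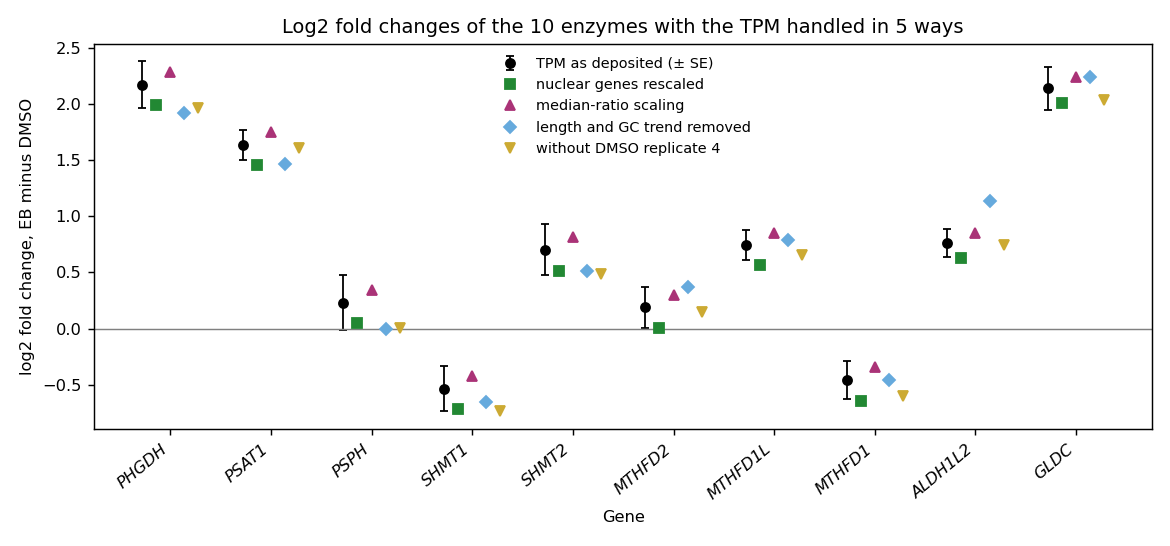
Log2 fold change of EB against DMSO for the 10 enzymes with TPM as deposited (black, ± SE) and in 4 other ways of handling the values. The median over all genes tested moves with the scaling, from -0.11 as deposited to -0.28 over nuclear genes only and -0.01 with median-ratio scaling, and the signs of SHMT1 and MTHFD1 are negative and those of the 6 members called higher positive in all 5.

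PHGDH, PSAT1, MTHFD1L, ALDH1L2 and GLDC were called higher under all 17 alternatives. PSPH, at -0.003 with the length and GC trend removed, was the only member whose log2 fold change changed sign, and it was called under 0 of the 17. Over the tested nuclear genes the log2 fold change fell with transcript length (Spearman's rho -0.48 over 11685 genes, which are not independent replicates). The members' transcripts were 1866 to 7428 bases long, and the longest, that of ALDH1L2, had its log2 fold change moved from 0.76 to 1.13 when that trend was removed, while that of PHGDH, the shortest, moved from 2.17 to 1.92.

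The members have partners in the same reactions. MTHFD2L, the isoenzyme of MTHFD2, was at 4.06 ± 2.28 TPM (SD, n = 4) with DMSO and 6.59 ± 1.48 TPM (SD, n = 4) with EB and was not called (limma, Benjamini-Hochberg adjusted p = 0.0896, from 0.0192 to 0.225 over the alternatives). ALDH1L1, the cytosolic counterpart of ALDH1L2, stayed below 1 TPM in every library and was not tested. The glycine cleavage system needs GCSH, AMT and DLD beside GLDC. DLD, the dihydrolipoamide dehydrogenase that also serves other mitochondrial complexes, fell with EB, from 59.8 ± 13.7 TPM (SD, n = 4) to 36.2 ± 3.40 TPM (SD, n = 4), with a log2 fold change of -0.69 (limma adjusted p = 0.00907, from 0.000532 to 0.0295 over the alternatives). GCSH, the lipoyl carrier protein, was at 50.8 ± 15.2 TPM (SD, n = 4) and 49.6 ± 7.54 TPM (SD, n = 4) and AMT, the aminomethyltransferase, had a log2 fold change of -0.37 (SE 0.30). Neither was called. The GLDC to GCSH ratio was 0.0832 to 0.122 with DMSO and 0.402 to 0.688 with EB, so the RNA of the decarboxylase was below that of the carrier in every library of both groups.

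Of 11 genes of folate uptake, storage and reduction 9 were tested, and 2 rose, 1 fell and 6 were not called. GGH, the hydrolase that trims folate polyglutamates, had a log2 fold change of 0.81 (limma adjusted p = 0.00207, from 0.000609 to 0.0693). MTHFS, which returns 5-formyltetrahydrofolate to the pool, had one of 0.95 (limma adjusted p = 0.0326, from 0.00594 to 0.0890) and was called under 9 of 17 alternatives. Without DMSO replicate 4 the MTHFS log2 fold change was 0.76 and not called. The proton-coupled folate carrier SLC46A1 had one of -0.35 (limma adjusted p = 0.0452, from 0.00123 to 0.900) and was called under 5 of 16. FPGS, which adds the glutamates, was at 79.2 ± 8.09 TPM (SD, n = 4) and 78.1 ± 3.69 TPM (SD, n = 4) and was not called. The median log2 fold change of the list was 0.16, against -0.11 over all genes tested.

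All 14 genes of thymidylate and purine synthesis, which consume the one-carbon units, were tested, and 2 rose, 1 fell and 11 were not called. IMPDH1, an isoenzyme of the guanine nucleotide branch, had a log2 fold change of 0.67 (limma adjusted p = 0.0184, from 0.000481 to 0.0542). ATIC, which uses 10-formyltetrahydrofolate to close the purine ring, had one of 0.36 (limma adjusted p = 0.0432, from 0.00227 to 0.518). PRPS2, which makes the ribose donor, had one of -1.18 (limma adjusted p = 0.0380, from 0.00180 to 0.0993). IMPDH2, the other isoenzyme, was at 361 ± 46.5 TPM (SD, n = 4) with DMSO and 295 ± 14.8 TPM (SD, n = 4) with EB, a log2 fold change of -0.28 (limma adjusted p = 0.112, from 0.000680 to 0.242). It was not called as reported but was called lower under 4 of 17 alternatives, among them nuclear genes only and without DMSO replicate 4. Without DMSO replicate 4 that of PRPS2 was -1.58. ATIC was called under 8 of 17 alternatives, PRPS2 under 10 and IMPDH1 under 15. The list's median was -0.21, and -0.10 with median-ratio scaling. Over nuclear genes only it was -0.40, where the median of all genes tested was -0.28. Several genes of the list not called as reported were called lower over nuclear genes only, and ATIC was not called there.

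Of 22 carriers and other users of serine and glycine, 17 were tested, and TDH was not analysed here. SLC1A4, a carrier of serine and other neutral amino acids, rose from 3.99 ± 0.85 TPM (SD, n = 4) to 11.97 ± 1.55 TPM (SD, n = 4), with a log2 fold change of 1.39 (limma adjusted p = 0.000324, from 5.88e-06 to 0.00169). SLC38A2, another neutral amino acid carrier, had one of -0.95 (limma adjusted p = 0.0379, from 0.00426 to 0.115) and was called under 9 of 17 alternatives. SLC1A5, best known for glutamine uptake, was at 114 ± 36.3 TPM (SD, n = 4) with DMSO and 210 ± 76.1 TPM (SD, n = 4) with EB. Its log2 fold change of 0.86 (limma adjusted p = 0.0744, from 0.00176 to 0.175) was 0.57 without DMSO replicate 4. It was called higher under 3 of 17 alternatives but was not called as reported. The other 14 tested were not called as reported either, and the median log2 fold change of the 17 was -0.03. Several of these 14 were called lower over nuclear genes only, and several others were called higher with median-ratio scaling.

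Among the 11 regulators and targets of the amino acid stress response, all tested, 9 rose, 1 fell and 1 was not called, with a median log2 fold change of 1.15 against -0.11 over all genes tested. This list was chosen with earlier results of these libraries known, so its count is not independent evidence of its direction. ATF4 was at 203, 249, 251 and 171 TPM with DMSO and 461, 437, 424 and 538 TPM with EB, a log2 fold change of 1.10 (limma adjusted p = 0.000844, from 0.000155 to 0.00740). ASNS, asparagine synthetase, was at 39.8, 47.6, 38.2 and 31.1 TPM with DMSO and 234, 229, 252 and 216 TPM with EB, a log2 fold change of 2.55 (limma adjusted p = 9.81e-06, from 1.23e-06 to 0.000207). For both, every EB library was above every DMSO library, and for ATF4 the highest was EB replicate 4, which was the lowest EB library for 8 of the 10 members. DDIT3, the factor also called CHOP, had a log2 fold change of 1.85 (limma adjusted p = 0.000591, from 0.000365 to 0.00295), TRIB3, a pseudokinase, one of 1.64 (limma adjusted p = 0.00366, from 0.000712 to 0.0123) and CEBPB, a bZIP factor, one of 1.54 (limma adjusted p = 0.000144, from 3.78e-06 to 0.000913). ATF5 was at 115 ± 28.0 TPM (SD, n = 4) and 99.0 ± 28.2 TPM (SD, n = 4) and was not called. The gene that fell, named here because it was the only one and after its values were seen, was EIF2AK4, which encodes the amino acid sensing kinase GCN2, from 35.5 ± 6.83 TPM (SD, n = 4) to 20.1 ± 1.89 TPM (SD, n = 4).

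**Figure D5:**
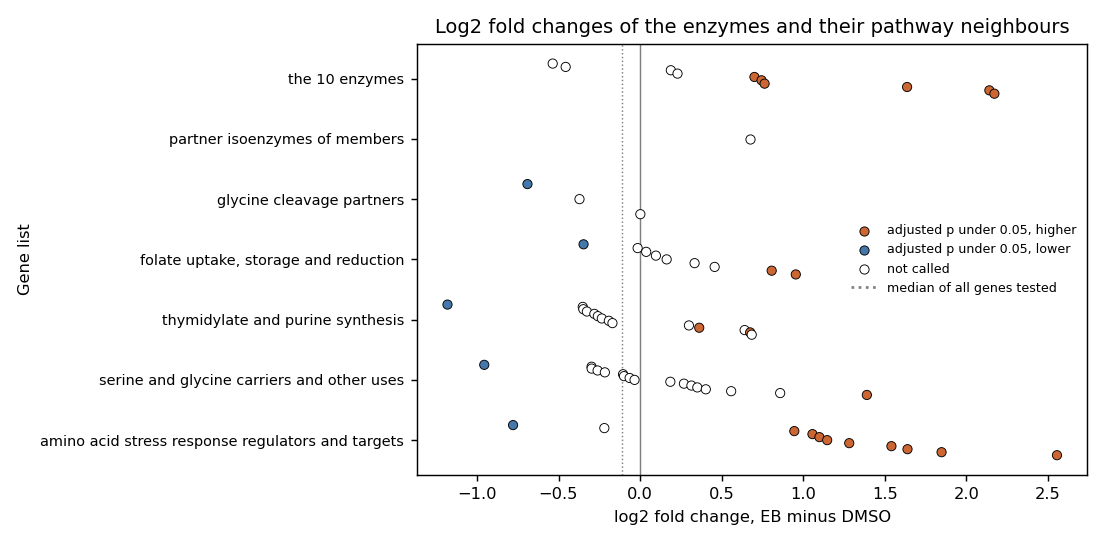
Log2 fold change of EB against DMSO for each tested gene of the 10 enzymes and of 6 lists of related genes, filled orange where called higher, blue where called lower and white where not called. Of the 11 stress response genes 9 are filled orange, whereas 36 of all 55 tested genes outside the 10 enzymes are white, and the dotted line marks the median of all genes tested at -0.11.

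Over all lists outside the members, 55 of 63 genes were tested, of which 14 rose, 5 fell and 36 were not called, beside the 15.2% of all genes tested that were called higher and the 25.1% called lower. The stress response list of 11 genes, chosen with earlier results known, held 9 of the 14 and 1 of the 5. Elsewhere, 2 of 9 folate genes, 2 of 14 thymidylate and purine genes and 1 of 17 carriers and other users rose, and 1 of each list fell. Of the 3 glycine cleavage partners 0 rose and 1 fell. Nothing is read from the pooled count.

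The genes outside the members whose profile over the 8 libraries was most like that of PHGDH, by Pearson's r of log2(TPM + 1), were BCAP31, an endoplasmic reticulum membrane protein (r 0.999), PRDX4, an endoplasmic reticulum peroxiredoxin (r 0.999), SUCLG1, a succinate-CoA ligase subunit (r 0.998), HMOX1, heme oxygenase (r 0.998), and NSUN5, an RNA methyltransferase (r 0.998). An r of at least 0.95 with PHGDH was reached by 640 of 11688 genes. For MTHFD2 the closest were PHTF1 (r 0.978), SPAG1 (r 0.955), MRFAP1L1 (r 0.954), BRME1 (r 0.938) and METTL2B (r 0.938), and only 3 genes reached 0.95. The points of each r are 8 libraries in 2 groups that share the scale of TPM, so r is given as a description with no p.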

How the data were processed

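RNA sequencing measured gene expression in 8 PANC-1 libraries, 4 with EB and 4 with DMSO, grouped by their titles. The authors deposited 1 table of TPM, a normalized unit, for 20263 human Ensembl genes. Per the methods, reads were trimmed and mapped in CLC Genomics Workbench, with HISAT2 and StringTie among further tools, and both a mouse and a human build (hg38) are named. No identifier was a mouse identifier. No read counts were used, so depth and counting precision are unknown. The methods speak of 4 biological replicates in each group and also of triplicates, and p-values measure the spread between these libraries.

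GENCODE release 44 on hg38 gave symbols for 20148 identifiers, and gene positions and transcript lengths. TPM were used as deposited, as log2(TPM + 1), for genes with at least 1 TPM in at least 4 libraries. The EB and DMSO groups were compared by limma 3.58.1 (lmFit and eBayes, no trend, no block) in R 4.3.3 with Benjamini-Hochberg adjustment over all genes tested. Genes at an adjusted p under 0.05 were called. Tables and plots used Python 3.11.15, numpy 2.4.6, pandas 2.3.3 and matplotlib 3.10.9. The steps were tested on simulated data.

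The members, the lists, the markers and the motifs were chosen with earlier results of these data known. Named are all members, their partner isoenzymes and glycine cleavage partners, from each other list the called genes (up to 4, taken by size of log2 fold change in either direction) and the uncalled gene with the highest mean TPM, ATF4 and ASNS, and the 5 profiles closest to PHGDH and to MTHFD2. Alternatives were a pseudocount of 0.1, no filter, at least 5 TPM, median-ratio scaling, quantile normalization, rescaling over nuclear genes, removal of the dependence on transcript length and GC content (splines with 4 degrees of freedom), an intensity trend, a block for the replicate number, and each library left out. Protein sequences were not compared here, and a gene of the folate list is not reported here.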

Additional observations from a re-analysis of the deposited data

Results flagged for a closer look

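In groups of 4 libraries, a value was singled out where its gap to the nearest other library, divided by the range of the group, exceeded Dixon's 95% critical value. Of 64 groups tested, 20 of them groups of the members, 6 had such a value, 2 of those in members, and chance alone gives about 1 in 20. DMSO replicate 4 was far below the other DMSO libraries for SHMT2, at 79.9 TPM against 141 to 151 TPM, and for MTHFD1, at 101 TPM against 147 to 154 TPM. The same library was far below the others for IMPDH1 at 151 TPM, for SLC1A5 at 59.3 TPM and for TRIB3 at 12.0 TPM. EB replicate 1 was far above the other EB libraries for TRIB3, at 122 TPM against 44.7 to 57.1 TPM. The mitochondrially encoded share of TPM in DMSO replicate 4 was 39.0%. With TPM rescaled over nuclear genes, the gap as a share of the range was 0.646 for SHMT2 and 0.816 for MTHFD1, both under the critical value, whereas it was 0.974 for IMPDH1, 0.879 for SLC1A5, 0.972 for TRIB3 in DMSO replicate 4 and 0.867 for TRIB3 in EB replicate 1.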

How the results depend on the processing

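Of all genes tested, 1785 were called higher and 2944 lower. The count called higher was 3039 with median-ratio scaling and 2792 with quantile normalization, and the count called lower was 4954 over nuclear genes only. Of members, 5 or 6 were called higher under every alternative. The number of members called lower, 0 as reported, was 2 with median-ratio scaling, quantile normalization, nuclear genes only or the replicate block, 1 with the length and GC trend removed or an intensity trend, and 0 to 2 with a library left out, the 2 without DMSO replicate 4. Of the other pathway genes 14 were called higher and 5 lower, against 22 higher and 8 lower with quantile normalization, 8 lower with no filter, 16 lower over nuclear genes, and 2 to 11 lower with a library left out (11 without DMSO replicate 4, 2 without DMSO replicate 1, 2 or 3 or EB replicate 1 or 3, and 3 without EB replicate 4). The sign of GCSH, near 0 as reported, turned to -0.011 with quantile normalization, -0.18 over nuclear genes, -0.31 with the length and GC trend removed and lay between -0.13 and 0.16 with a library left out. That of FPGS turned to 0.099 with median-ratio scaling and lay between -0.084 and 0.035 with a library left out. The cause was not tested. For same-numbered libraries, r of deviations from the group means was 0.18, 0.05, -0.09 and 0.28 for numbers 1 to 4. Between differently numbered libraries of the 2 groups it was -0.24 to 0.13. Whether the numbers pair the samples was not tested and cannot be told from these values. With the replicate block 2231 genes were called higher and 3525 lower. Values of genes outside the members were sorted by direction and call, those of members and ratios by whether they moved beyond the spread between replicates. By these rules 477 values stayed the same, and 5 of members or ratios moved by more than that spread. Among values of genes outside the members, 46 lost the call, 10 gained it and 11 changed sign. Each value is a gene under a single alternative, so the same gene can be counted many times. Calls that members lost or gained, and the change of sign of PSPH, are not in these counts. Depth is unknown, so what it limits cannot be given.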
